A study of Homo sapiens with 45 samples.

Results

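The regions described here are 849 bins of 50 kb that lost H3K27me3, a repressive histone mark, when HNRNPK was depleted in HCT116 cells. They were found by cutting chromosomes 1 to 22 of GRCh38 into 50 kb bins from position 0. A bin was kept where at least 50% of its bases lay in the H3K27me3 domain list of control cells and under 50% lay in the list of depleted cells. These 849 bins are 5.43% of the 15624 bins that carried the mark in control cells, and they hold 42.375 Mb of the 57494 bins examined. The other 14775 marked bins stayed at or above 50% in both lists and are called kept bins. A further 279 bins gained the mark by the reverse rule.

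HCT116 is an established human colon cancer cell line. Cells received 25 nM siRNA with the RNAiMAX lipid reagent for 72 hours, either a nontargeting control siRNA (siNTC5 in the RNA libraries) or an siRNA against HNRNPK, which encodes heterogeneous nuclear ribonucleoprotein K. Chromatin immunoprecipitation gave 7 domain lists, 1 per antibody and siRNA. Those lists are lamin B1, H3K9me3 and H3K27me3 in control and depleted cells and H3K9me2 in control cells. The labels name 2 H3K27me3 libraries per siRNA, but the lists carry no replicate values. RNA was sequenced from 4 siNTC5 and 4 HNRNPK siRNA libraries. In both groups the TruSeq kit served replicates 1 and 2 and the Ligation kit served replicates 3 and 4. A pair of further nontargeting libraries, named Scramble, had another RNA purification kit and entered only an alternative fit. The labels do not say whether the HNRNPK siRNA was a single duplex or a pool, and all groups come from this cell line.

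H3K27me3 is written by Polycomb repressive complex 2 (PRC2), in which EZH2 or EZH1 carries the catalytic activity with EED and SUZ12. CBX subunits of canonical Polycomb repressive complex 1 (PRC1) read the mark, and developmental regulators such as HOX genes are its best known targets. Lamin B1 marks chromatin at the nuclear lamina, while H3K9me2 and H3K9me3 mark other forms of repressed chromatin. HNRNPK protein binds cytosine-rich RNA and DNA, and in mouse X inactivation it links a noncoding RNA to a variant form of PRC1.

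Promoters of 6 genes in these bins are printed first, because they belong to the genes with the largest rises and falls of RNA there and show the range of CG content among them. Each runs from 250 bases before to 50 after a RefSeq start on GRCh38.p14, 5′ to 3′ on the gene's strand, with every CG dinucleotide in capitals. ACCSL (chr11:44047731-44048030, plus strand), SDR9C7 (chr12:56934359-56934658, minus strand) and CYP11A1 (chr15:74367597-74367896, minus strand) rose. HOMEZ (chr14:23286083-23286382, minus strand), LINC01145 (chr1:145216003-145216302, minus strand) and TMT1B (chr12:55681486-55681785, plus strand) fell.
ACCSL: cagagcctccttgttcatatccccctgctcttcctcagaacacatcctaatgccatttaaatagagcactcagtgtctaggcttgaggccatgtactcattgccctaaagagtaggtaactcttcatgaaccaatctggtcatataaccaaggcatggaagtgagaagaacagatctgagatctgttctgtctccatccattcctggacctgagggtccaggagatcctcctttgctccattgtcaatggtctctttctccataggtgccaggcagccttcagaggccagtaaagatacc
SDR9C7: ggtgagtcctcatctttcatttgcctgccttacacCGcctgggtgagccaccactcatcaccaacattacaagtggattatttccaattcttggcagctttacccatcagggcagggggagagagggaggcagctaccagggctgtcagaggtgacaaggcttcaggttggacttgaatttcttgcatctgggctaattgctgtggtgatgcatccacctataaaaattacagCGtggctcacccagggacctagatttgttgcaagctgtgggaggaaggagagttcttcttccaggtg
CYP11A1: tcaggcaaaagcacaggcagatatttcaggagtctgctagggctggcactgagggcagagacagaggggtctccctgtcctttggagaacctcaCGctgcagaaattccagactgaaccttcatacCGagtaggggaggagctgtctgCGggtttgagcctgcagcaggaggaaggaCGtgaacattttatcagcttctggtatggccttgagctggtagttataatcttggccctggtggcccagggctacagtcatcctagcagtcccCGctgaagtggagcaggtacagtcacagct
HOMEZ: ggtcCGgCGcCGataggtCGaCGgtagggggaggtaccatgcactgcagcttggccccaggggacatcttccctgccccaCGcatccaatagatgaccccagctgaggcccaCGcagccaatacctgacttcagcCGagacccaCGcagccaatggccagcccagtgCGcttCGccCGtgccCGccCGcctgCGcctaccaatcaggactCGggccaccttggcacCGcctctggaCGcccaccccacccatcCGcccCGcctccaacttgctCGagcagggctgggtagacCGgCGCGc
LINC01145: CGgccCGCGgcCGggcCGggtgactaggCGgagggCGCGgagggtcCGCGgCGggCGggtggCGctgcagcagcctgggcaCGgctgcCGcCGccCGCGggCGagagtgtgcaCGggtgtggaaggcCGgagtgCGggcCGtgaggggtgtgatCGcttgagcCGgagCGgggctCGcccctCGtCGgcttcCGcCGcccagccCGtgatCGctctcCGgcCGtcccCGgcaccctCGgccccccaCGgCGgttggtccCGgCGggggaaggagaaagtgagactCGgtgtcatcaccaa
TMT1B: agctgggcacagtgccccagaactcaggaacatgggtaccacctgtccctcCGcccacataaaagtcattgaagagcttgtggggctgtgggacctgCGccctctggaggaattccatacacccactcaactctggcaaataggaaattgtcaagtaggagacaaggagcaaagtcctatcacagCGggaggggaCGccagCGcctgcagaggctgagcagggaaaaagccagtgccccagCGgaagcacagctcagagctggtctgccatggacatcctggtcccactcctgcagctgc
The 3 promoters of genes that rose held 0, 2 and 5 CG dinucleotides, and those of genes that fell held 24, 42 and 6. All promoters with a start in the lost bins, 741 promoters of 606 genes, had a median of 11 CG in their 300 bases. The median was 6 in kept bins and 14 over all 35116 promoters of the table. This gap between lost and kept bins was small among genes with enough RNA to test, where the medians were 22 and 21. Promoters of called genes in lost bins had a median of 19 CG where the gene was higher and 25.5 where it was lower. The cytosine-rich word CCCTCCC, searched on both strands, was present in 1 of the 6 printed promoters, that of TMT1B. It was present in 30.6% of promoters starting in lost bins, in 23.3% of those in kept bins and in 26.6% of all promoters of that length. These are matches of letters and no evidence of binding.

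The members were chosen by their H3K27me3 cover in the deposited lists, so those values are a description. The control list covered 500 of the 849 bins fully, 600 had no base left in the depleted list, and 436 met both conditions. Near the limit, 128 lost bins still had 40% to under 50% in the depleted list, and 247 kept bins had 50% to under 60%. Another 134 lost bins had a control cover of only 50% to under 60%. Most lost bins were therefore far inside the limits, and a minority lay close to them.

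Lost bins lay in small, low-scoring control domains and near domain edges. The control domain that held a lost bin was 265 kb long at the median, against 680 kb for kept bins, and the bin centre was 35 kb from the nearest domain edge against 145 kb. The authors' deposited domain score, of unstated unit, was 0.382 at the median for lost bins and 1.28 for kept bins. By distance from the edge, 15.6% of control bins under 50 kb from it were lost, then 5.10% at 50 to under 100 kb, 2.63% at 100 to under 200 kb, 1.71% at 200 to under 400 kb and 1.27% at 400 kb or more. Without the longest run of lost bins, described with the runs, the share in the last class was 0.32%. By quartile class of the score over control domains, the shares lost were 26.2%, 5.73%, 1.60% and 1.21% from the lowest to the highest. By quartile class of domain length they were 24.7%, 9.77%, 4.43% and 2.17%. All of these come from the list that chose the bins and have no replicate or test.

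Losses of whole domains made up 417 of the lost bins (49.1%). These fell in 131 of the 1658 control domains, which had no base left in the depleted list and together spanned 20.1 Mb. The 131 domains were 115 kb long at the median and ran from 95 kb, the length of the shortest control domain, to 580 kb. Their score had a median of 0.304, against 0.950 for the 1527 domains that kept at least 1 base. Another 379 lost bins (44.6%) had bases of the depleted list on only 1 side of them within their domain. They are called ends of domains here, whatever their distance from the edge. The remaining 53 (6.24%) lay between bases that the depleted list still covered in the same domain. Both ends of the 1527 surviving domains were compared, 3054 edges in all. Of these, 36.3% had moved inward, 43.1% had not moved and 20.6% had moved outward. Moves of 25 kb or more were seen at 3.6% of edges inward and at 2.82% outward.

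The depleted list started at a higher score than the control list. The lowest score was 0.241 among 1658 control domains and 0.279 among 1578 domains of depleted cells, and 76 control domains scored under 0.279. These 76 included 48 of the 131 domains lost whole and held 232 of the lost bins (27.3%). With both lists held to the same lowest score, 617 bins were lost. Whether the scores of separate lists share a scale is not given in the sources used here, and the part of the list limits in these losses was not tested.

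**Figure D1:**
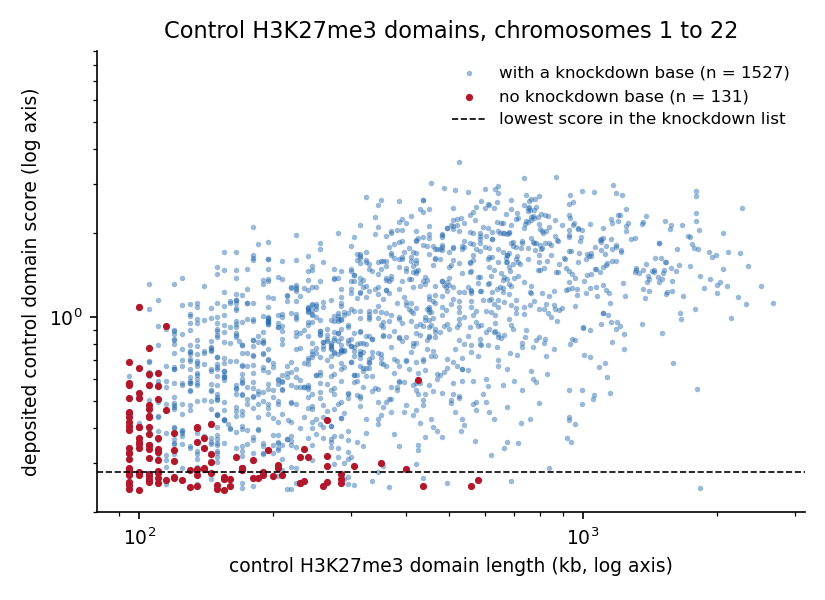
Each point is 1 control H3K27me3 domain of chromosomes 1 to 22, by its length in kb and its deposited score, both on log axes. The 131 domains with no base in the depleted list (red) had a median of 115 kb and a score of 0.304; the dashed line is the lowest score in the depleted list, 0.279.

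Outside the lamina, the mark was lost far more often. Only 53 of the lost bins (6.24%) were in control lamin B1 domains, against 50.3% of kept bins and 29.7% of all bins. The median lost bin lay 1000 kb from the nearest control lamin B1 domain, and 66.7% lay 500 kb or more away. The median kept bin lay within such a domain, and the median over all bins was 540 kb. Read the other way, 0.709% of the 7478 control H3K27me3 bins in lamin B1 domains lost the mark, against 9.77% of the 8146 outside them. Lamin B1 was not used to choose the bins, but with 1 list per antibody and neighbouring bins sharing domains this contrast has no test.

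The contrast with lamin B1 was present at each distance from the domain edge and in each quartile class of score. Under 50 kb from an edge, 3.69% of lamin B1 bins and 19% of other bins were lost. At 400 kb or more from an edge, 0 of 1828 lamin B1 bins were lost, against 28 of 380 other bins (7.37%). In the lowest class of score the shares were 7.71% and 31.6%, and in the highest class 0.102% and 3.02%. Among bins outside lamin B1, the shares lost in the last 3 classes of distance were 4.42%, 4.06% and 7.37%. Much of the last value came from 1 run on chromosome 1, the longest, and without its 33 bins the 3 shares were 4.42%, 3.54% and 1.95% (7 of 359 bins at 400 kb or more).

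**Figure D2:**
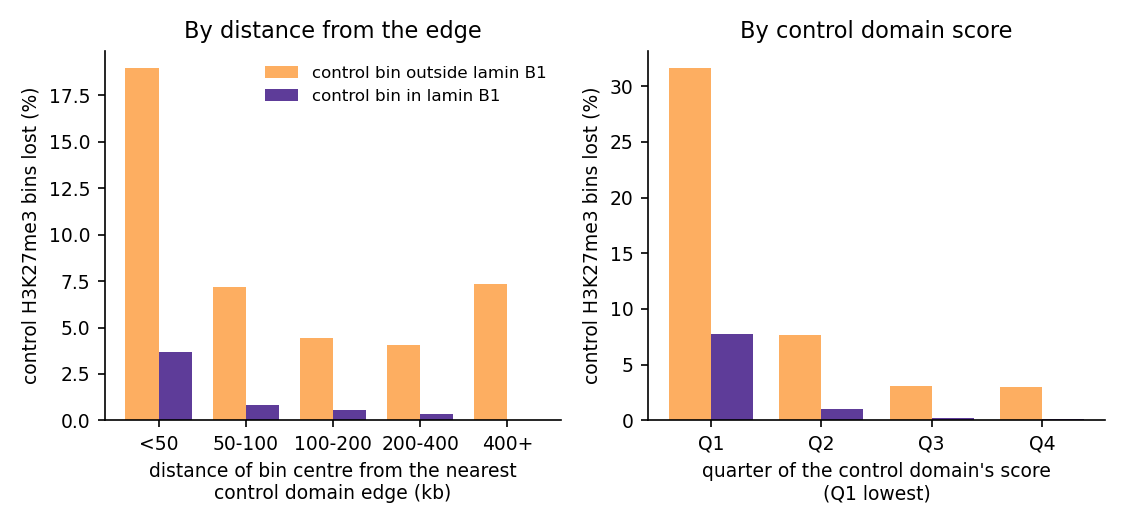
Bars give the percent of control H3K27me3 bins that lost the mark, split by whether the bin lay in a control lamin B1 domain, against distance of the bin centre from the nearest domain edge in kb (left) and against quartile class of the deposited domain score (right). Bins outside lamin B1 (orange) stand above bins in lamin B1 (purple) in every class, from 19% against 3.69% nearest the edge to 7.37% against 0 of 1828 bins at 400 kb or more (1.95% without the longest run).

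Each list was counted without regard to the others, and H3K9me2 followed the same order. For H3K9me3 the order of lost and kept bins depended on the longest run and on the score limits. H3K9me2 domains of control cells held 29 lost bins (3.42%), against 28.8% of kept bins, and each of these 29 was also in lamin B1 and H3K9me3 domains. Control H3K9me3 domains held 114 lost bins (13.4%), against 11.5% of kept bins and 21.0% of all bins. Bins free of lamin B1, H3K9me3 and H3K9me2 made up 725 of the 849 lost bins (85.4%) and 46.8% of kept bins. Inside lamin B1 domains, 0.308% of bins with neither H3K9 mark were lost (10 bins) and 0% of those with H3K9me2 alone. The share there was 10.2% with H3K9me3 alone (14 bins, or 7.52% without the longest run of lost bins) and 2.14% with both (29 bins). Most losses inside lamin B1 thus lay in bins with H3K9me3. Outside lamin B1, only 180 control bins had H3K9me2 alone and 18 had both H3K9 marks, and 0 were lost. The combination with the highest share lost was H3K9me3 without lamin B1 or H3K9me2, where 71 bins, 23.1% of those in this state, lost H3K27me3. A single run on chromosome 1, described below, carries 33 of the 114 H3K9me3 bins. Without it the share of lost bins in control H3K9me3 domains was 9.93%, under the 11.5% of kept bins. The last combination then lost 43 of 280 bins (15.4%). With both lists held to the same lowest score, control H3K9me3 domains held 9.4% of lost and 11.4% of kept bins. Above the first score quartile they held 8.56% of lost and 11.4% of kept bins.

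**Figure D3:**
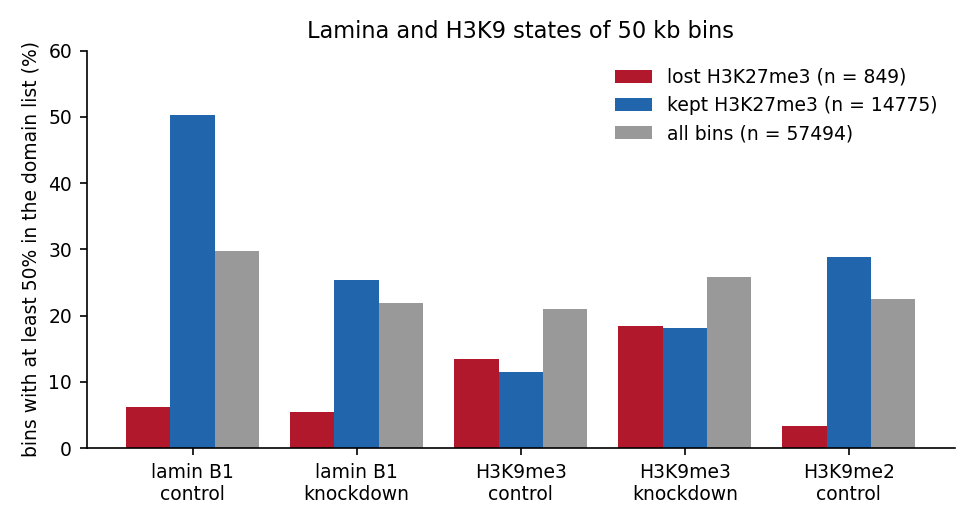
Bars give the percent of 50 kb bins with at least 50% of their bases in each domain list, for the 849 bins that lost H3K27me3 (red), the 14775 that kept it (blue) and all 57494 bins (grey). Control lamin B1 stood at 6.24%, 50.3% and 29.7%, and control H3K9me3 at 13.4%, 11.5% and 21.0%. Without the longest run the control H3K9me3 share of lost bins was 9.93%.

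Lamin B1 and H3K9me3 changed in the lost bins about as often as over all bins. Of the 53 lost bins in control lamin B1 domains, 19 (35.8%) were outside lamin B1 in depleted cells, against 29.3% of all lamin B1 bins of the autosomes and 52.1% of kept ones. Lamin B1 appeared in 12 of the 796 others. H3K9me3 appeared in 43 of the 735 lost bins that lacked it in control cells (5.85%), against 6.31% of all bins lacking it and 7.87% of kept ones. It disappeared from 1 of 114. The share with new H3K9me3 thus lay near its background.

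The lost bins formed 421 runs of adjacent bins, of which 240 were single bins and 95 held 3 or more. They touched 397 of the 1658 control domains. Every autosome had some, from 2.21% of control H3K27me3 bins on chromosome 20 (10 bins) to 10.8% on chromosome 17 (49 bins). The longest run, chr1:143750001-145400000, joined 33 bins. It lay wholly in H3K9me3 in both lists, had 13.6% control lamin B1 and held 64 RefSeq genes, among them SRGAP2B, NBPF15, NBPF20, FAM72C, FAM72D and members of the PPIAL4 family. These belong to families with near-identical copies, so both the domain calls and the RNA counts there depend on how reads with several matches were placed, which is not given in the sources used here. Other long runs were chr1:170700001-171300000 (12 bins; PRRX1, FMO1, FMO2 and MROH9), chr10:62500001-62950000 (9 bins; ADO and EGR2) and chr3:193750001-194200000 (9 bins; HES1). None of these 4 runs had a base in the depleted list. A run of 7 bins, chr1:146100001-146450000, holds NBPF10 and PPIAL4H, of families also found in the longest run. It too lay wholly in H3K9me3 in both lists, and it stays in the values given without the longest run.

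The run with FMO1 and FMO2, which encode flavin-containing monooxygenases, also lost lamin B1. Its control cover by lamin B1 was 31.7%, and none was left in depleted cells. By contrast chr2:89900001-90300000, 8 bins over immunoglobulin variable segments, had 81.2% lamin B1 in control and 75% in depleted cells. Of the 421 runs, 22 had at least 50% control lamin B1. Among these was chr2:167050001-167150000, a run of 2 bins with no protein-coding gene.

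RefSeq places 1265 genes in the lost bins by 50% or more of the gene body, 394 of them protein-coding, 415 long noncoding and 284 pseudogenes. Lost bins held 29.9 genes and 9.30 protein-coding genes per Mb. Kept bins held 18.7 and 4.79, and all bins 19.7 and 6.65. Genes with enough counts to test numbered 5.38 per Mb in lost bins, 1.63 in kept bins and 4.64 over all bins. The count table names 563 of the 1265 genes, and 228 passed the filter on low counts. Since a silent gene enters the test only if some library reads it, the shares below are over those 228 genes and not over all members.

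The RNA libraries had totals of 12107280 to 23633851 counts. HNRNPK itself stood at 934, 967, 822 and 814 CPM (read counts scaled to library size with TMM factors) in the 4 control libraries and at 250.3, 223, 157 and 164 CPM after its siRNA, a log2 fold change of -2.17 ± 0.06 (standard error). The groups did not overlap, and a two-sided exact permutation test gave p = 0.0286, which is the lowest value open to groups of 4. Of 10 colon epithelium markers 8 reached 1 CPM, and none of the 5 haematopoietic markers did. The fibroblast and endothelial lists had 1 marker each at that level. The summed level of the epithelial markers was 2842 to 3329 CPM in controls and 4474 to 5396 CPM in depleted cells, and its part in the results was not tested. The labels do not say that replicates came from separate cultures, so p-values measure the spread between these libraries. In bulk RNA, fewer cells that express a gene and less RNA per cell cannot be told apart.

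RNA in the lost bins moved about as often, and about as much up as down, as in the genome at large. In edgeR's quasi-likelihood test with Benjamini-Hochberg adjustment over all tested genes, 160 of the 228 genes (70.2%) passed an adjusted p of 0.05, against a background of 71.5% over 13933 genes. Of these, 81 (35.5%) were higher after HNRNPK siRNA and 79 (34.6%) lower, against backgrounds of 35.5% and 36.1%. The median log2 fold change was -0.02 in lost bins and 0.00 over all genes. A change of at least 2-fold was called for 21 higher (9.21%, background 7.47%) and 23 lower genes (10.1%, background 8.28%). The 4 knockdown libraries lay above every control library for 68 genes (29.8%, background 28.5%) and below every one for 55 (24.1%, background 28.0%). Each of these shares lies near its background, so the counts are no result about the lost bins. With the Scramble libraries added as controls the calls fell to 105 of 222 (47.3%) in lost bins and to 6965 of 13460 (51.7%) over all genes.

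In kept bins more tested genes were higher than lower. Of 1201 tested there, 501 (41.7%) were higher and 300 (25.0%) lower, and the median log2 fold change was 0.17. In kept bins with control lamin B1, 95 of 186 tested genes (51.1%) were higher and 31 (16.7%) lower. In kept bins free of lamin B1, H3K9me3 and H3K9me2, 387 of 962 (40.2%) were higher and 256 (26.6%) lower, against 75 and 75 of 212 (35.4% each) in the lost bins of that state. Among kept bins under 50 kb from a domain edge, 38% of 413 genes were higher and 29.5% lower. The difference between lost and kept bins has no test here. Of the positioned genes, 3.84% were tested in kept bins with lamin B1, 8.69% in all kept bins and 18.0% in lost bins. A gene silent in controls enters only if the knockdown libraries read it, and can then only be higher. The part of this filter in the shares of kept bins was not tested.

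**Figure D4:**
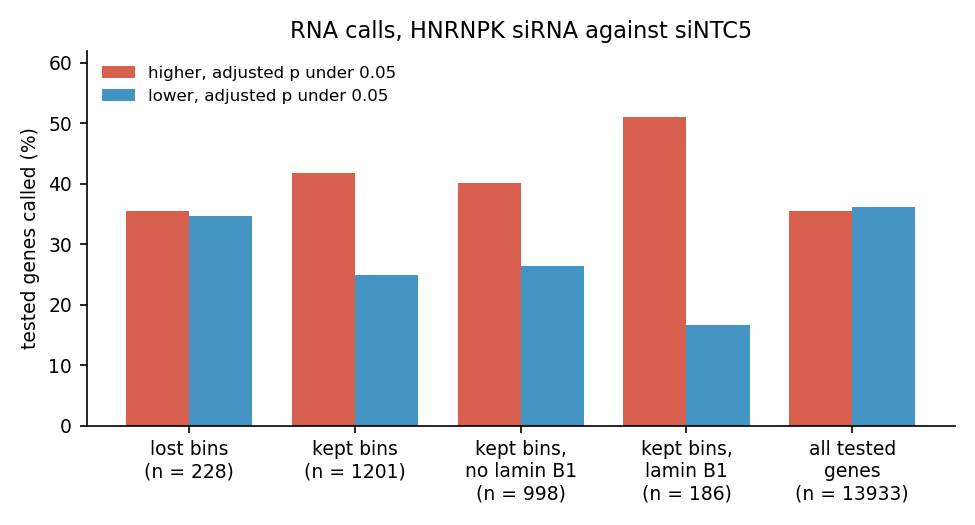
Bars give the percent of tested genes that were higher (red) or lower (blue) after HNRNPK siRNA at an adjusted p under 0.05 in edgeR, for genes assigned to each class of bin by 50% or more of the body. Lost bins (35.5% and 34.6%) stand close to all tested genes (35.5% and 36.1%), while kept bins in lamin B1 reach 51.1% higher. Of the positioned genes only 3.84% were tested in those lamin B1 bins, against 18.0% in lost bins.

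By position in the domain, the shares of genes called are given beside the backgrounds of 35.5% higher and 36.1% lower. In domains lost whole, 31 of 81 tested genes (38.3%) were higher and 24 (29.6%) lower, with a median log2 fold change of 0.05. At domain ends 37 of 120 (30.8%) were higher and 49 (40.8%) lower, with a median of -0.12. Between remaining bases of a domain 13 of 27 (48.1%) were higher and 6 (22.2%) lower, with a median of 0.17. These 3 classes were not tested against each other. A bin can lose the mark while a gene inside it never carried it or keeps it. Of the 228 tested genes, 175 had at least 50% of their body in the control list and 29 had no base in it. For 132 genes the body went from at least 50% to none, and of these 45 (34.1%) were higher and 48 (36.4%) lower, close to the backgrounds of 35.5% and 36.1%. For 18 genes the body stayed at least 50% covered in both lists.

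Among called genes with an average log2 CPM of 0 or more and no overlap between the groups, the largest rises were seen for ACCSL, SDR9C7 and CYP11A1, whose promoters are printed above. These 3 were near silent in controls and passed the filter on low counts only through the knockdown libraries, so a rise was the only change they could show. ACCSL (chr11:43921068-44059977), a homologue of plant ACC synthase, had 0, 0, 0.267 and 0.110 CPM in controls and 2.31, 2.97, 1.77 and 1.81 CPM after HNRNPK siRNA. Its log2 fold change of 4.64 ± 0.51 (edgeR, adjusted p = 1.63e-07) rests on almost no control reads, and was 8.52 in the TruSeq and 3.24 in the Ligation libraries. All knockdown libraries were above all controls, which the choice of these genes required. The printed promoter of ACCSL lies inside the span of the gene, whose first base falls outside the lost run chr11:43950001-44050000.
SDR9C7 (chr12:56923133-56934408) encodes a short-chain dehydrogenase of the epidermal lipid barrier. It had 0, 0.209, 0.133 and 0.164 CPM in controls and 2.31, 2.82, 3.71 and 3.30 CPM after knockdown, a log2 fold change of 4.39 ± 0.37 (edgeR, adjusted p = 5.26e-09). Its neighbour RDH16 (chr12:56951431-56957608), a retinol dehydrogenase, lies in the same run of 3 lost bins. RDH16 went from 2.31, 1.5, 2.73 and 2.52 CPM to 9.69, 9.88, 13.9 and 13.4 CPM, a log2 fold change of 2.38 ± 0.14 (edgeR, adjusted p = 3.99e-11). Both bodies lay wholly in H3K27me3 and in H3K9me3 in control cells. In depleted cells no H3K27me3 base was left over either, while H3K9me3 still covered both fully.
CYP11A1 (chr15:74337762-74367646) encodes the enzyme that starts steroid hormone synthesis by cleaving the side chain of cholesterol. It had 0.356, 0.0418, 0.0666 and 0.328 CPM in controls and 1.65, 2.08, 1.94 and 2.55 CPM after knockdown, a log2 fold change of 3.37 ± 0.41 (edgeR, adjusted p = 6.83e-07). Its own body was still covered to 91.1% by H3K27me3 in depleted cells, since the lost bin went only from 50.0% to 30.0% cover. With domain edges on 5 kb steps, the part of the body left uncovered was the end that holds the transcription start and the printed promoter. ABCC8 (chr11:17392498-17476845), the sulphonylurea receptor of beta-cell potassium channels, falls under that limit of expression and is named after its values were seen. ABCC8 had 0.0593, 0.0418, 0 and 0.110 CPM in controls and 1.38, 0.966, 1.69 and 1.24 CPM after knockdown, a log2 fold change of 4.41 ± 0.51 (edgeR, adjusted p = 3.14e-07). Its body went from 97.0% to no H3K27me3 cover. ABCC8 too passed the filter on low counts only through the knockdown libraries.

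The other 8 largest rises had log2 fold changes of 1.80 to 2.68, with no overlap between the groups by the rule of choice. FBXO32 (chr8:123497889-123541206), the muscle ubiquitin ligase also called atrogin-1, went from 2.85, 2.46, 3.66 and 3.56 CPM to 17.3, 17.2, 21.6 and 23.6 CPM. This was a log2 fold change of 2.68 ± 0.11 (edgeR, adjusted p = 2.27e-13). VGLL3 (chr3:86937973-86991149), a cofactor of TEAD transcription factors in a 4-bin run, went from 0.474, 0.501, 0.533 and 0.274 CPM to 2.31, 3.71, 2.36 and 1.81 CPM, a log2 fold change of 2.51 ± 0.30. SPARC, a matricellular protein of connective tissue, rose by 2.36 ± 0.33 on the log2 scale, and THSD1, a membrane protein of endothelium, by 1.82 ± 0.22 (edgeR, adjusted p = 3.79e-06 and 7.10e-07). CSF1R (chr5:150053295-150113365), the receptor for the macrophage growth factor CSF1, lies in a 6-bin run with PDGFRB, CDX1 and CAMK2A. It went from 1.13, 0.710, 0.666 and 0.931 CPM to 3.16, 3.42, 2.7 and 3.13 CPM, a log2 fold change of 1.86 ± 0.23. UBL4B, a ubiquitin-like protein, and the noncoding LINC01397 share a 3-bin run on chromosome 1 and rose by 2.59 ± 0.33 and 1.80 ± 0.33. LINC00537 on chromosome 9 rose by 1.88 ± 0.30. In the Ligation libraries alone LINC01397 stood at 1.19, and the adjusted p of these 8 genes in edgeR was 9.62e-05 or lower. For UBL4B, VGLL3, SPARC, LINC00537 and LINC01397 no control library was above 0.657 CPM. They too passed the filter on low counts only through the knockdown libraries, so a rise was the only change they could show. The body of THSD1 had no base in the control H3K27me3 list, so only the bins around it lost the mark. FBXO32 had only 37.4% of its body in that list. The 4 endothelial markers summed to 0.836 to 1.35 CPM in controls and 1.93 to 3.67 CPM in depleted cells. Of these 1 reached 1 CPM and none was at 0 in all 8 libraries, and their part in the rise of THSD1 was not tested. CSF1R and SPARC are known from macrophages and fibroblasts. Of the haematopoietic markers none reached 1 CPM, with a summed level of 0.27 to 0.677 CPM in controls and 0.444 to 0.918 CPM in depleted cells. The 6 fibroblast markers summed to 44.2 to 73.8 CPM in controls and 74.8 to 119.7 CPM in depleted cells, with 2 of the 6 at 0 in all 8 libraries, and their part in the rise of SPARC was not tested.

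Among the 12 largest falls were GARIN5A, HOMEZ and LYNX1. GARIN5A (chr19:50466788-50476848), a Golgi-associated protein that interacts with RAB2, had 9.19, 6.93, 11.5 and 10.9 CPM in controls. After HNRNPK siRNA it had 1.19, 1.34, 1.60 and 1.32 CPM, a log2 fold change of -2.80 ± 0.17 (edgeR, adjusted p = 5.66e-11). Its body lay wholly in the control list and had no base in the depleted one, so it lost both the mark and RNA. HOMEZ (chr14:23272422-23286132), a homeobox and leucine zipper protein, had 13.9, 17.5, 19.1 and 18.7 CPM in controls and 4.22, 1.19, 2.87 and 3.21 CPM after knockdown. The log2 fold change of HOMEZ was -2.57 ± 0.19 (edgeR, adjusted p = 8.84e-10). LYNX1 on chromosome 8, a modulator of nicotinic acetylcholine receptors, fell by 2.49 ± 0.27 on the log2 scale.
TMT1B (chr12:55681736-55684611), a thiol methyltransferase, had 13.6, 17.1, 12.1 and 12.7 CPM in controls and 3.82, 3.71, 2.02 and 3.46 CPM after knockdown. LINC01145 (chr1:145164099-145216052), a noncoding gene in the long run on chromosome 1, had 5.16, 5.01, 6.80 and 7.55 CPM and then 1.32, 1.41, 1.10 and 1.65 CPM. Their log2 fold changes were -2.09 ± 0.14 and -2.13 ± 0.18 (edgeR, adjusted p = 2.12e-10 and 6.67e-09). In both, every knockdown library was below every control, which the rule of choice required.

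The fall with most RNA was that of PFKL (chr21:44300053-44327373), the liver type of the glycolytic enzyme phosphofructokinase. It had 153, 108, 186 and 178 CPM in controls and 44.5, 40.5, 62.6 and 69.0 CPM after knockdown, a log2 fold change of -1.54 ± 0.08 (edgeR, adjusted p = 1.04e-11). PFKL lay in a single lost bin, between bases of the domain that kept the mark, and its own body went from full cover to none. CHDH, choline dehydrogenase of mitochondria, fell by 1.58 ± 0.11 on the log2 scale, and SAP30L, a subunit of the Sin3 corepressor, by 1.51 ± 0.12. LOXL1, which cross-links elastin, fell by 1.86 ± 0.19, the adhesion receptor ADGRB1 by 1.5 ± 0.22 and the matrix protein MATN2 by 1.35 ± 0.18. KCNQ1 (chr11:2445008-2849105), a voltage-gated potassium channel gene in an imprinted region, fell by 1.82 ± 0.21 and crosses 2 runs of 3 lost bins each. It overlaps the antisense noncoding KCNQ1OT1, and the strand counted is not given in the sources used here. All 12 falls had an adjusted p of 4.91e-06 or lower in edgeR, and no overlap between the groups was a condition of their choice. Of the 12, LOXL1, CHDH, SAP30L and LYNX1 had under 50% of their own body in the control list.

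**Figure D5:**
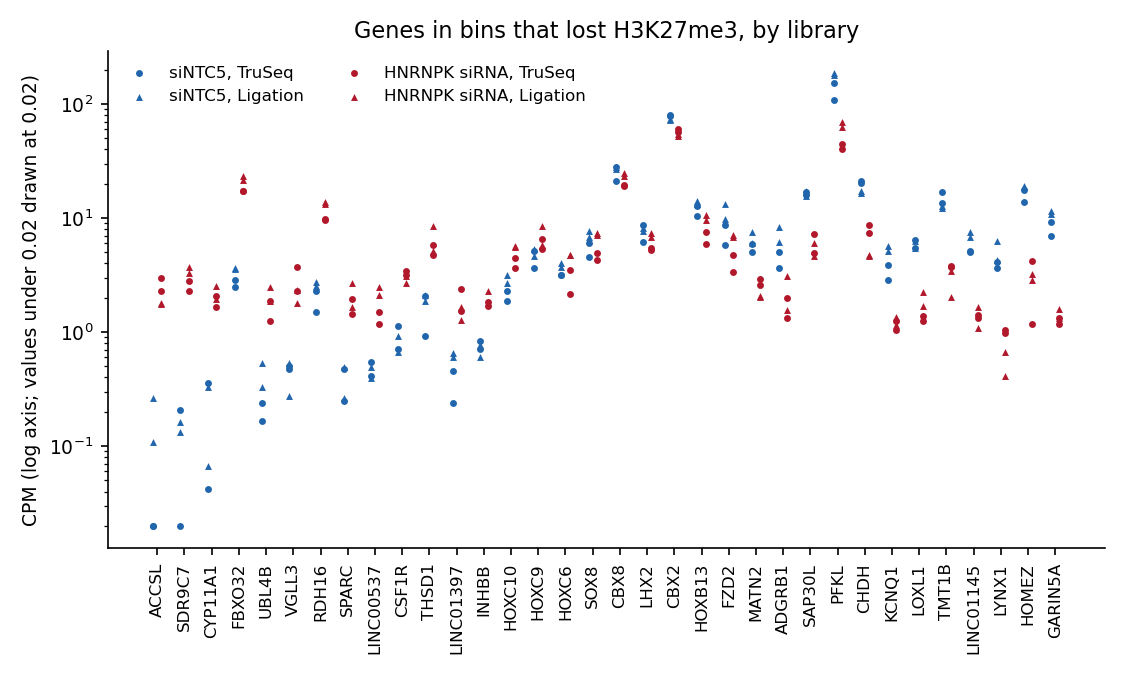
Each point is 1 library, in CPM on a log axis, for the 12 genes with the largest rises, the 12 with the largest falls and the tested genes of the fixed lists in lost bins, ordered by log2 fold change. Knockdown libraries (red) lie above all controls (blue) for genes at the left end, from ACCSL to INHBB and HOXC10, and below all controls at the right end, from MATN2 to GARIN5A. For the largest rises and falls this absence of overlap was a condition of choice. Circles are TruSeq and triangles Ligation libraries.

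Polycomb genes themselves lay partly in the lost bins. CBX2 and CBX8, which encode subunits of canonical PRC1 that bind H3K27me3, share a lost run of 2 bins at the end of a domain (chr17:79700001-79800000). Their bodies went from full cover to none. CBX2 had 80.8, 78.8, 72.5 and 73.8 CPM in controls and 56.8, 60.2, 52.5 and 55.0 CPM after knockdown, with no overlap. Its log2 fold change was -0.45 ± 0.05 (edgeR, adjusted p = 2.76e-07), and with the Scramble libraries among the controls it was -0.26 and no longer called. CBX8 had 28.2, 21.1, 26.8 and 28.0 CPM and then 19, 19.5, 23.5 and 25.1 CPM, so the groups overlapped. Its log2 fold change of -0.26 ± 0.09 (edgeR, adjusted p = 0.0156) lost its call in 5 alternatives, among them either kit alone and the omission of control replicate 1, where it was -0.16 with an adjusted p of 0.0763.

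The core writers of the mark held their RNA level within the error. The log2 fold changes were 0.02 ± 0.06 for EZH2, 0.00 ± 0.07 for EED, -0.01 ± 0.05 for SUZ12 and -0.02 ± 0.07 for EZH1 (edgeR, adjusted p of 0.778, 0.990, 0.909 and 0.800). Of 12 tested PRC2 genes 8 were called (66.7%, background 71.5%). MTF2, RBBP4 and LCOR were the 3 higher (25.0%, background 35.5%). RBBP7, JARID2, AEBP2, PHF1 and PHF19 were the 5 lower (41.7%, background 36.1%). MTF2, an accessory subunit that binds CG-rich DNA, rose most. MTF2 went from 67.8, 73.7, 58.2 and 63.9 CPM to 99.7, 108.5, 97.5 and 86.9 CPM, a log2 fold change of 0.57 ± 0.06 (edgeR, adjusted p = 3.70e-08).
Of 17 tested PRC1 genes, 7 were higher (41.2%, background 35.5%) and 6 lower (35.3%, background 36.1%). CBX7, another reader of H3K27me3, fell from 18.9, 20.5, 20.1 and 19 CPM to 9.49, 9.58, 8.77 and 11.3 CPM, a log2 fold change of -1.0 ± 0.10 (edgeR, adjusted p = 2.40e-08). PHC2, a polyhomeotic subunit, fell by 0.63 ± 0.05 on the log2 scale, KDM2B, which brings variant PRC1 to CG-rich DNA, by 0.58 ± 0.06 and RNF2, the ubiquitin ligase of PRC1, by 0.52 ± 0.06. Of 3 H3K27 demethylase genes 2 were higher (66.7%, background 35.5%) and 0 lower. KDM6A, one of them, rose from 29.6, 35.0, 33.4 and 36.6 CPM to 48.5, 52.7, 55.3 and 55.0 CPM, a log2 fold change of 0.65 ± 0.07 (edgeR, adjusted p = 7.09e-08). Of 11 genes for H3K36 methylation, H3K4 methylation of the trithorax type and H3K27 acetylation, 8 were higher (72.7%, background 35.5%) and 1 lower (9.09%, background 36.1%). The lower gene, named after its value was seen, was NSD2, which writes H3K36me2, at -0.79 ± 0.05 (edgeR, adjusted p = 2.25e-11). The median log2 fold changes of these lists were -0.01 for PRC2, -0.04 for PRC1 and 0.17 for the last, beside 0.00 over all genes.

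Of all 19126 protein-coding genes of the autosomes 394 (2.06%) were assigned to the lost bins. Of 123 developmental transcription factors in a fixed list 6 were (4.88%), and of 74 genes of developmental signalling 3 were (4.05%). All 6 transcription factors were tested, and 2 were higher and 2 lower, too few to set against backgrounds of 35.5% and 36.1%. Of 73 neuronal and adhesion genes 0 were. The lists do not hold every gene of these kinds in the lost bins, such as other HOXC genes of the run below, so the shares are descriptions of the lists. Over the whole lists, wherever the genes lay, 24 of 62 tested transcription factors (38.7%) were higher and 17 (27.4%) lower. The same counts were 7 (19.4%) and 17 (47.2%) of 36 signalling genes and 7 (50.0%) and 3 (21.4%) of 14 neuronal and adhesion genes, beside backgrounds of 35.5% and 36.1%. HOXC6, HOXC9 and HOXC10 share a run of 2 bins (chr12:53950001-54050000), which held 16 genes and went from full to 40% cover. Some bases of the depleted list were left on both sides of this run in the same domain. HOXC10 went from 2.31, 1.88, 3.20 and 2.68 CPM to 3.63, 4.46, 5.65 and 5.6 CPM, a log2 fold change of 0.95 ± 0.17 (edgeR, adjusted p = 5.02e-05). HOXC9 went from 5.16, 3.63, 5.40 and 4.65 CPM to 5.41, 6.54, 8.60 and 5.77 CPM, with a log2 fold change of 0.49 ± 0.16 (edgeR, adjusted p = 0.0108). The call for HOXC9 was lost without HNRNPK siRNA replicate 3 (edgeR, adjusted p = 0.0800), in the TruSeq libraries alone and with Scramble controls added. HOXC6 did not pass, at 0.07 ± 0.18 (edgeR, adjusted p = 0.756). The noncoding HOTAIR of this run, chosen after its values were seen, went from 0.237, 0.334, 0.6 and 0.766 CPM to 1.52, 0.966, 1.94 and 1.40 CPM, a log2 fold change of 1.60 ± 0.33 (edgeR, adjusted p = 0.00023). HOTAIR too passed the filter on low counts only through the knockdown libraries. It is antisense to HOXC genes, and reads of the 2 strands cannot be told apart without the strand setting.

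HOXB13, a posterior HOX factor of colon and prostate, and FZD2, a WNT receptor, lay in domains lost whole and fell. HOXB13 had 12.7, 10.5, 14.1 and 13.3 CPM in controls and 7.58, 5.94, 9.69 and 10.5 CPM after knockdown, so the groups overlapped slightly. Its log2 fold change was -0.59 ± 0.12 (edgeR, adjusted p = 0.000165). FZD2 went from 8.78, 5.80, 13.3 and 9.85 CPM to 3.36, 4.75, 7.08 and 6.84 CPM, also with overlap, a log2 fold change of -0.77 ± 0.16 (edgeR, adjusted p = 0.000232). INHBB, a subunit of activin and inhibin, rose by 1.35 ± 0.26 on the log2 scale, but its own body stayed fully covered by H3K27me3, while the bin that holds most of it went from 50.0% to 40% cover. SOX8 did not pass, at -0.08 ± 0.14 (edgeR, adjusted p = 0.596). LHX2, a LIM homeobox factor in a 5-bin run, was called at -0.31 ± 0.14 (edgeR, adjusted p = 0.0471), but this call was lost in 12 alternatives, including DESeq2 and the omission of control replicate 1 or 3 or of HNRNPK siRNA replicate 1, 2 or 4. INHBA, the other activin subunit in these bins, had 10 counts in all controls and 7 in all knockdown libraries and was not tested.

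The protein-coding genes described here for the longest runs differed by less than 2-fold or had too few counts to test. HES1, a repressor downstream of Notch in a 9-bin run, went from 12.3, 8.73, 9.99 and 10.4 CPM to 12.3, 11.7, 17.9 and 14.3 CPM, with overlap. Its log2 fold change was 0.43 ± 0.13 (edgeR, adjusted p = 0.00557), but 0.21 in the TruSeq libraries and 0.04 with Scramble controls added, neither called. ADO, a cysteamine dioxygenase, stayed between 29.9 and 36 CPM in all 8 libraries (0.05 ± 0.07; edgeR, adjusted p = 0.550). EGR2, a zinc finger transcription factor in the same run as ADO, stood at -0.49 ± 0.22 (edgeR, adjusted p = 0.0517). It passed in 4 alternatives, among them those without HNRNPK siRNA replicate 1 or 3, with adjusted p of 0.0368 and 0.0338.
FMO1, FMO2 and PRRX1 of the 12-bin run on chromosome 1 were not tested. FMO1 had 19 counts in all controls and 12 in all knockdown libraries, FMO2 had 6 and 7, and PRRX1 had 1 and 0. In the 33-bin run NBPF20 rose by 0.86 ± 0.09 on the log2 scale, SRGAP2B by 0.83 ± 0.10 and NBPF15 by 0.46 ± 0.06, with no overlap in any of them, while FAM72C stood at -0.13 ± 0.17 (edgeR, adjusted p = 4.82e-08, 9.27e-07, 1.97e-06 and 0.528). These values are uncertain, because the counting could split reads between near-identical copies. With Scramble controls added SRGAP2B stood at a log2 fold change of 1.46 and its call was lost (edgeR, adjusted p = 0.316).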

How the data were processed

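HCT116 cells treated with siNTC5 or HNRNPK siRNA gave ChIP domain lists and RNA libraries. The authors deposited raw counts per gene name, made with STAR 2.7.1a and featureCounts (Subread 2.0.6) per the submitters' processing notes; annotation and strand setting are not given in the sources used here. The authors deposited 1 score per domain; the notes name fastp 0.23.2, Bowtie2 2.5.1, deepTools 3.1.3 and hg38, but the domain caller, input handling, pooling and read depth are not given. Domain edges fall on 5 kb steps, so cover moves in such steps. Scramble counts came as separate tables whose notes name both hg19 and hg38, and 25527 names were shared.

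Bins and shares were computed in Python 3.11.15 (pandas 2.3.3, numpy 2.4.6). A bin or gene was in a state when at least 50% of its bases were. Gene positions and promoters came from RefSeq (GRCh38.p14), matching 27616 of 28278 names (97.7%) and 13762 of 13933 tested genes. Promoters were held for 154 of the 228 tested genes in lost bins. After filterByExpr and TMM normalization, counts were tested in edgeR 4.0.16 (R 4.3.3; quasi-likelihood) with kit and treatment, adjusted over all tested genes at 0.05. A value after ± is a standard error derived from edgeR's log2 fold change and quasi-likelihood F statistic. Steps were tested on simulated data. The simulated counts had no kit effect and far fewer changed genes than were called here, so they do not test the fit in that setting.

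Same-numbered libraries deviated together from their group means (r across genes of 0.1004, 0.4246, 0.3365 and 0.2653; 0.0582 and 0.009 within the kits), and the number is tied to the kit in the labels, so a replicate block was run as an alternative. No replicate pair agreed within sampling noise (chi-square per degree of freedom of at least 2.32). Alternatives covered normalization, DESeq2 1.42.0, filters, kit, controls, omitted libraries, bin size and start, cover and score limits, and gene assignment; unscaled totals, assignment by transcription start and omission of the longest run were added after seeing the data.

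The bins, lists and rules were chosen with earlier results of these data known. Named genes are HNRNPK, the 12 largest rises and 12 largest falls among called genes with average log2 CPM of at least 0 and no overlap, list genes in lost bins, PRC2, PRC1 and H3K27 demethylase genes called and changed by 0.5 or more on the log2 scale, and protein-coding genes of the 5 longest runs and the 3 longest in lamin B1. Some items that this rule names are not reported here.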

Additional observations from a re-analysis of the deposited data

Results flagged for a closer look

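No library lay far from the rest of its group by Dixon's 95% critical value in the 96 groups of 4 checked over the genes named here. No gene in lost bins had a difference between the kits in its response at an adjusted p under 0.05 in edgeR (22 at an unadjusted p under 0.05), against 18 over all tested genes.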

How the results depend on the processing

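Replicate block in place of kit, by the pairing of replicate numbers, gave 9872 calls over all genes and 160 in lost bins (79 higher, 81 lower), and changed the call of no named gene. Leaving out 1 library gave 9612 to 9997 calls over all genes, 154 to 163 in lost bins, and an exact p of 0.02857 for HNRNPK each time. In lost bins the calls numbered 105 of 222 with Scramble controls added (52 higher, 53 lower), 254 of 370 with any overlap, and 44 at a minimum change of 2-fold, where all genes gave 2195. For HNRNPK, the exact test within each kit gave p = 0.3333, the lowest open to groups of 2. The number of lost bins was 1661 at 25 kb, 410 at 100 kb, 527 with at least 75% in control and under 25% in knockdown, 600 with no knockdown base and 500 with full control cover; the last 3 left 81, 89 and 85 calls, from fewer genes. The share in control H3K9me3 domains was 15.9% at 75% and 25%, 16% with full control cover, 9.4% with a common lowest score, 8.56% above the first score quartile and 9.93% without the longest run; that in knockdown H3K9me3 domains was 21.3% at 75% and 25%, 14.6% with a common lowest score, 14.9% above the first score quartile, 15.1% without the longest run, 21.6% with any overlap and 15.2% at 90%. The share in control lamin B1 was 8.80% above the first score quartile, beside 54.5% of kept bins. The share in domains lost whole was 63.8% at 75% and 25%, 69.5% with no knockdown base, 39.2% with a common lowest score, 65.9% above the first score quartile and 57.6% with full control cover. The cause of these shifts was not tested. Of 897 values of named genes under alternatives, 869 kept their side of the threshold, 24 lost a call and 4 gained one; none of the called genes changed sign. Domain lists have no replicates and unknown depth, so no share of bins carries a test.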
